A study of Homo sapiens with 4 samples.

Results

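The 39 genes described here serve autophagy and the lysosome, and were taken by name from a list and summed over their transcripts in the deposited table. They are 39 of the 22031 genes to which transcripts of the table could be matched. They comprise 24 autophagosome genes and receptors, 12 lysosomal hydrolases and membrane proteins, and 3 transcription factors, TFEB, TFE3 and MITF. All 39 had values, and 38 passed the filter of a mean of at least 10 normalized counts over the libraries. The exception was CTSZ, a lysosomal cysteine protease, which had 1.80 and 11.4 normalized counts in the mimic libraries and 7.28 and 2.24 in the control libraries.

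Macroautophagy encloses cytoplasm in a double membrane, the autophagosome, which fuses with the lysosome. The ULK kinase complex starts the process, a class III phosphatidylinositol 3-kinase complex marks the membrane, and a pair of ubiquitin-like conjugation systems attaches ATG8 proteins to it. Receptors bind ubiquitinated cargo and ATG8 proteins, and lysosomal hydrolases degrade what is delivered. TFEB, TFE3 and MITF are helix-loop-helix factors that bind CLEAR elements in promoters of lysosomal and autophagy genes, and mTORC1 at the lysosomal surface restrains them. Several cathepsins are known to be abundant in glioblastoma.

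The cells were U87, an established human glioblastoma line. The treated cells received 50 nM of a synthetic oligonucleotide that mimics tRF-3009a, a fragment of a transfer RNA, and the control cells received the same dose of ssGL2, 1 strand of the siRNA siGL2, which targets luciferase. All cells were transfected with Lipofectamine 2000 and harvested after 48 h, so the controls share the transfection, and no untransfected cells were analysed here. There were 2 mimic and 2 control libraries of polyadenylated RNA, titled with the numbers 1 and 2 in each group. They are called mimic 1, mimic 2, control 1 and control 2 below.

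Recovered whole reads came to 33848402 and 33255642 in the mimic libraries and 30153387 and 28860788 in the control libraries. Libraries that share a number were more alike than libraries that share a treatment. Pearson's r of log2 values over 16535 genes was 0.984 within number 1 and 0.987 within number 2, against 0.941 between the mimic libraries and 0.942 between the control libraries. The labels do not say what the number stands for, so culture, day and library preparation cannot be told apart, and p-values measure only the spread between these libraries, which may be technical. RNA input was 250 or 500 ng, without saying which library had which. Of the glioma markers, VIM, CD44 and EGFR were high, with 6533 to 276546 normalized counts, while GFAP and SOX2 stood at 9.35 to 29.7. Of the immune markers, PTPRC, CD14 and ITGAM stood at 0 to 6.72, CSF1R at 52.4 to 440 and CD68, a lysosomal membrane protein, at 7238 to 10220.

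The levels of the genes were compared per kb of transcript, since longer transcripts collect more reads. By the mean over the libraries the lysosomal proteases led the order. The aspartic protease CTSD had 12952 and 28055 normalized counts per kb in the mimic libraries and 16463 and 27548 in the control libraries. It was followed by the receptor SQSTM1, also called p62, with a mean of 13722 per kb, and then by CTSL, CTSB and CTSA with means of 13260, 12745 and 12455 per kb. Those 4 means lie closer together than the libraries of SQSTM1, of CTSA and of CTSB do, so the order among these 4 genes is not resolved. The order also differed between libraries. In mimic 1 CTSL, at 13619 per kb, lay above CTSD, but in control 1 it lay below, at 12923 against 16463. The place of SQSTM1 changed with the library number. It had 19162 and 19436 per kb in mimic 2 and control 2. In mimic 1 and control 1 it had 8090 and 8200, and CTSL, CTSB and CTSA lay above it.

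GABARAP led the ATG8 proteins with a mean of 9412 per kb, above MAP1LC3B at 5204, GABARAPL2 at 2029 and GABARAPL1 at 787. In the libraries numbered 1 MAP1LC3B, at 1641 and 1688 per kb, lay below GABARAPL2, at 1843 and 1842 per kb. The kinases ULK1 and ULK2 were low, with means of 272 and 53.2 per kb. Among the transcription factors TFE3 was highest at a mean of 1204 per kb, against 107 for MITF and 24.9 for TFEB. Summed per kb, the autophagosome genes and receptors came to 37787 and 67510 in the mimic libraries and 38392 and 68250 in the control libraries. The summed lysosomal genes reached 68430 and 94199 per kb in the mimic libraries and 76448 and 95940 in the control libraries. In both treatments the library numbered 2 had the higher sum for each class.

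**Figure D1:**
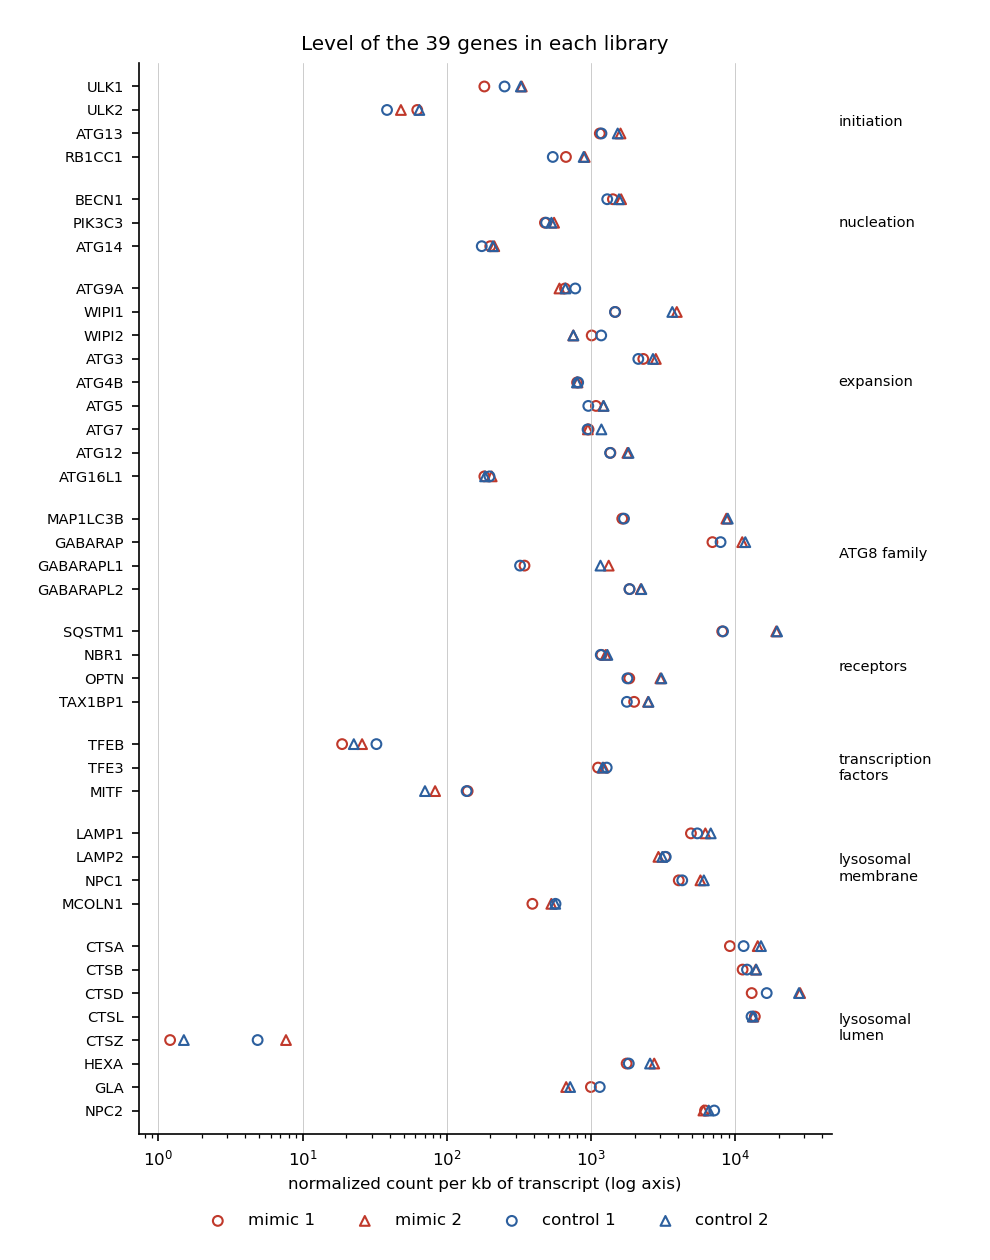
Normalized counts per kb of transcript (log axis) of the 39 genes, ordered by role, with red symbols for the mimic and blue for the control libraries, circles for number 1 and triangles for number 2. Symbols of the same shape lie close together for most genes, but apart for low ones such as CTSZ and TFEB. For MAP1LC3B, GABARAPL1, WIPI1 and SQSTM1 the triangles lie well to the right of the circles, with a mean of 5204 per kb for MAP1LC3B.

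Promoters were searched for sequences that bear on these genes, in RefSeq windows (GRCh38.p14) of 250 bases before to 50 bases after each annotated start. The table held 35116 windows of 27305 genes, and 47 windows matched 35 of the 39 genes. CTSB, HEXA, LAMP2 and RB1CC1 had no entry. The E-box core of the CLEAR element, CACGTG, reads the same on both strands and was found in 7.26% of all windows and in 6 of the 47 (12.8%). Those 6 windows belonged to 4 lysosomal genes, out of 10 windows of that class, and to 2 autophagosome genes, ATG3 and ATG14, out of 30. The full CLEAR palindrome, which is the same core preceded by GT and followed by AC, was in 0.353% of all windows and among these genes in that of MCOLN1.

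The bases before the start are shown for the 6 genes whose windows hold the core, with the core in capitals.
MCOLN1, chr19:7522524-7522623, plus strand: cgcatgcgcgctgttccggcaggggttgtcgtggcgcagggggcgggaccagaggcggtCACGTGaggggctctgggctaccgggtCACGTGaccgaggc
LAMP1, chr13:113297027-113297238, plus strand: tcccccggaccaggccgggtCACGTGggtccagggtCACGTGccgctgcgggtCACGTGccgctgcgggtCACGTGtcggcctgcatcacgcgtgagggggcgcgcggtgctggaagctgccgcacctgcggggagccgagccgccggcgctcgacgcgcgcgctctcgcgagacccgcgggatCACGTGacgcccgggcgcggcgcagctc
CTSA, chr20:45891235-45891334, plus strand: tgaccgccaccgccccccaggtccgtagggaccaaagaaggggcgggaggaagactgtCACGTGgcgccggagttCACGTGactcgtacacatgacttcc
CTSD, chr11:1763928-1764027, minus strand: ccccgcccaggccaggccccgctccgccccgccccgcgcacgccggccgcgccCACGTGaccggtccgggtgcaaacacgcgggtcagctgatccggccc
ATG3, chr3:112561963-112562062, minus strand: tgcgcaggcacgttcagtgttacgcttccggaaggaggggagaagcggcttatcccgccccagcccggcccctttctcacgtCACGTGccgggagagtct
ATG14, chr14:55411831-55411930, minus strand: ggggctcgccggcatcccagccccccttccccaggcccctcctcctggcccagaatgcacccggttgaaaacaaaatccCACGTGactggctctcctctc
In LAMP1, 5 cores lie fully before the start, and a further one runs across it. The window of ATG3 holds another core after the start. In MCOLN1 the core nearer to the start is the one inside the full palindrome.

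The antioxidant response element core, TGAC, then any 3 bases, then GC, was searched on both strands, and was in 13.3% of all windows and in 8 of the 47 (17.0%). Of those 8, 7 were lysosomal (CTSA, CTSD, CTSL, CTSZ, GLA, LAMP1 and NPC2), and in LAMP1 it overlaps a CACGTG core. The remaining window was that of MAP1LC3B, which is shown because this gene differed most between library numbers, with the element in capitals.
MAP1LC3B, chr16:87392236-87392335, plus strand: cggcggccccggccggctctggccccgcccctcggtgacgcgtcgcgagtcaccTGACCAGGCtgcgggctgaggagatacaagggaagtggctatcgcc
The part of the amino acid response element that ATF4 binds, TTGC followed by ATCA, was in 0.866% of all windows and in 0 of the 47. A match describes letters in a window and is not a bound site.

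The study's own comparison set the mimic against the control. No gene passed the test: limma with a trend on log2(value + 1), with Benjamini-Hochberg adjustment over 16535 genes, called 0 (0%). Among the 38 genes tested here 0 were called, the smallest adjusted p was 1.00, and 0 had an unadjusted p under 0.05. Over all genes 26 had an unadjusted p under 0.05 by limma, 35 by edgeR and 23 by DESeq2 on recovered reads. Those tools also called 0 genes. These fits had no term for the library number, so the difference between numbers entered their standard errors. With that number as a block, limma gave 1019 of the 16535 genes an unadjusted p under 0.05, 4 of them among the 38. After adjustment that fit called 117 of all genes (0.708%) and 0 of the 38. The 0 calls therefore do not show that the mimic left these genes unchanged. Of the 38 genes, 16 lay above 0 and 22 below in the mean difference of mimic minus control. In bulk RNA, a change in the share of cells that express a gene and a change in RNA per cell cannot be told apart.

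Within number 1 and within number 2 the difference had the same sign for 23 of the 38 genes, 9 above 0 and 14 below, as it did for 50.0% of all genes. Over all genes 22.3% were higher and 27.7% lower in the mimic within both numbers. Groups that do not overlap were found for 3 of the 38 genes (7.89%) and for 12.4% of all genes. Those were PIK3C3, the lipid kinase of the nucleation complex, and CTSL, each higher in both mimic libraries, and MCOLN1, a calcium channel of the lysosomal membrane, lower in both.

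The class medians of this difference lay close together, and no error was estimated for the gap between them. The median log2 difference of mimic minus control was 0.02 for the 24 autophagosome genes and receptors and −0.11 for the 11 lysosomal genes tested, against −0.01 for all genes. The gap between the classes was 0.13, and it was 0.14 within number 1 and 0.07 within number 2. Of the lysosomal genes 9 of 11 lay below 0, against 8888 of all 16535 genes. Within both numbers 7 of 11 (63.6%) did so, against 27.7% of all genes. Among the other lysosomal genes described below, that share was 35.3% of 34 enzymes and 38.5% of 13 membrane proteins. Of the autophagosome genes and receptors 13 lay above 0 and 11 below, with 7 above and 7 below within both numbers. No member of either class passed the test, and standard errors of single genes ran from 0.19 for CTSL to 1.17 for MAP1LC3B. Those errors also hold the difference between library numbers and do not measure the spread of the gap.

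Among the lysosomal genes MCOLN1 had the largest difference, with 727 and 1045 normalized counts in the mimic libraries and 1057 and 1064 in the control libraries. The low value is that of mimic 1, and the other 3 libraries lie close together. Its log2 difference was −0.28 ± 0.27 (SE, n = 2 each, limma), made up of −0.54 within number 1 and −0.03 within number 2. CTSA, a carboxypeptidase that protects other lysosomal enzymes, had 16753 and 25977 normalized counts in the mimic libraries and 20755 and 27352 in the control libraries. Its log2 difference was −0.19 ± 0.32, with −0.31 within number 1 and −0.07 within number 2.

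CTSD followed the same pattern. It had 26554 and 58619 normalized counts in the mimic libraries and 34725 and 57834 in the control libraries, which overlap, and a log2 difference of −0.39 within number 1 and 0.02 within number 2. A smaller difference of nearly equal size within both numbers was seen for LAMP1, an abundant glycoprotein of the lysosomal membrane, with −0.14 within number 1 and −0.13 within number 2. The cholesterol-binding protein NPC2 had −0.14 and −0.11, and GLA, the alpha-galactosidase, −0.13 and −0.09. The log2 difference of each of these genes was smaller than its standard error. That error also holds the difference between library numbers, so it does not measure the spread of mimic minus control alone.

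Among the other genes, TFEB had 36.0 and 54.4 normalized counts in the mimic libraries and 63.4 and 52.7 in the control libraries. Its log2 difference of −0.38 ± 0.42 was the lowest of the 38 genes and came from number 1 (−0.80), since number 2 gave 0.05. ULK1, the kinase that starts autophagy, had 894 and 1622 normalized counts in the mimic libraries and 1255 and 1574 in the control libraries. Its log2 difference was likewise −0.49 within number 1 and 0.04 within number 2. ATG9A, the transmembrane lipid scramblase, was at −0.34 within number 1 and −0.11 within number 2. The highest log2 differences were 0.15 ± 0.34 for RB1CC1, a scaffold of the ULK complex, and 0.13 ± 0.95 for GABARAPL1.

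**Figure D2:**
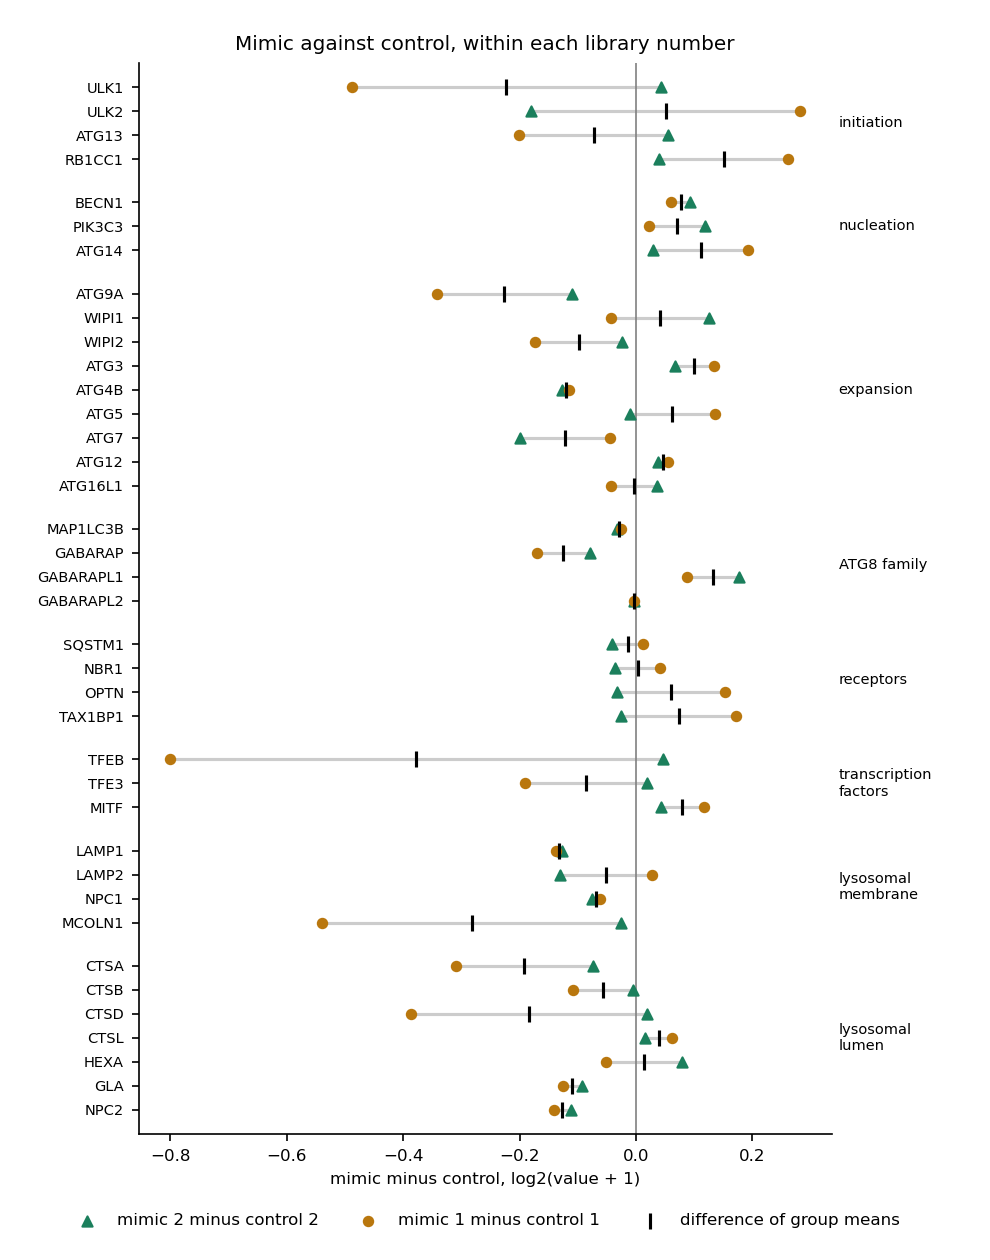
Difference of mimic minus control in log2(value + 1) for the 38 genes tested, by role, with green triangles for number 2, ochre circles for number 1 and black bars for the difference of group means. The circles spread wider than the triangles, reaching −0.80 for TFEB, −0.54 for MCOLN1 and −0.49 for ULK1, while no gene passed the test.

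The difference of mimic minus control moved with base composition within number 1. In 5 equal bins of all genes ordered by the GC content of their most abundant transcript, the median log2 difference within number 1 was 0.13, 0.08, 0.01, −0.10 and −0.24 with GC going up. Within number 2 it was −0.04, −0.02, −0.02, −0.01 and −0.00. The lysosomal genes had a median GC content of 52.7%, the autophagosome genes and receptors 48.6% and all genes 48.1%. After subtracting a lowess fit on GC content in each library, the class medians of the log2 difference were −0.09 for the lysosomal genes and −0.00 for the autophagosome genes and receptors, a gap of 0.09. That correction moved TFEB to −0.24, MCOLN1 to −0.18, ULK1 to −0.09 and CTSD to −0.06. What base composition contributed to the gap beyond this correction was not tested.

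**Figure D3:**
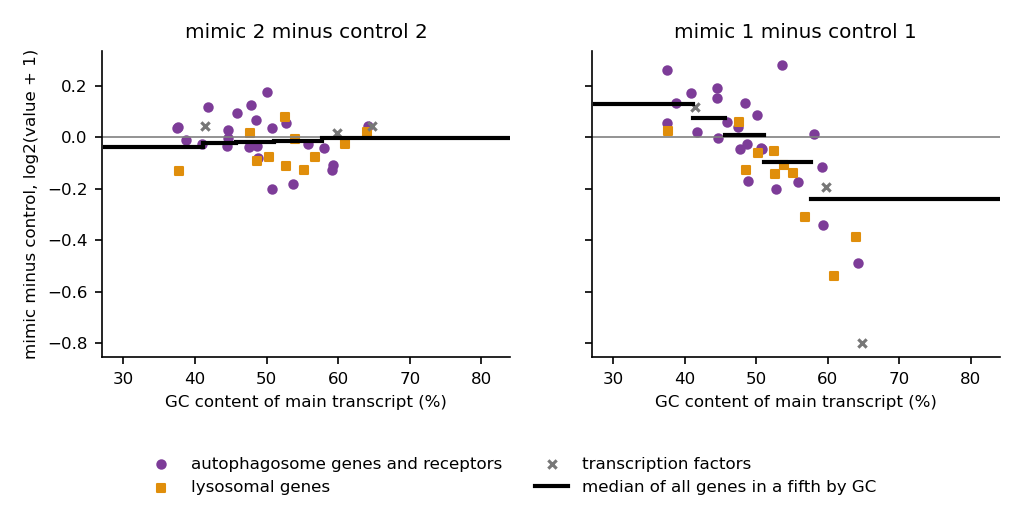
Difference of mimic minus control in log2(value + 1) against the GC content of each gene's main transcript, within number 2 and within number 1, with the classes by colour and black lines for the medians of all genes in 5 bins by GC content. Within number 1 the medians go down to −0.24 in the bin with the highest GC content and the members follow them, while within number 2 they stay between −0.04 and −0.00.

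The libraries numbered 2 were then set against those numbered 1, with 1 mimic and 1 control library on each side. In this comparison all 4 ATG8 genes, the receptor SQSTM1 and the early autophagosome protein WIPI1 were higher in number 2, and CTSD, NPC1 and HEXA were higher by less than 2-fold. Limma called 24 of the 38 genes (63.2%), 21 higher and 3 lower in number 2. Over all genes it called 50.2%, with 26.0% higher and 24.2% lower. Among genes with a mean of at least 50 normalized counts it called 61.1%, with the same 24 called here, so the share called was near that of genes of such levels. The calls were 21 upwards of 24. The median log2 difference was 0.27 for the 38 genes and 0.01 for all genes.

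A fold of at least 2 was reached upwards by 4 of the 38 genes, MAP1LC3B, GABARAPL1, WIPI1 and SQSTM1, and downwards by 0, against 9.39% and 9.92% of all genes. The count of 24 depended on the libraries numbered 2: it was 12 (31.6%) without mimic 2, 14 (36.8%) without control 2, 26 (68.4%) without mimic 1 and 25 (65.8%) without control 1. The same fits called 31.2%, 32.8%, 47.7% and 48.0% of all genes, so without either library numbered 2 the share was near that of all genes. The genes called in each of those fits were 12: RB1CC1, WIPI1, MAP1LC3B, GABARAP, GABARAPL1, SQSTM1, OPTN, NPC1, CTSD and HEXA, all higher in number 2, and MITF and GLA, lower.

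The ATG8 family, whose lipidated proteins coat the autophagosome and hold receptors to it, was called higher in all 4 members. Among all genes with a mean of at least 50 the share called, in either direction, was 61.1%. MAP1LC3B (chr16:87383995-87404779, plus strand, GRCh38), the protein LC3B that serves as the usual marker of autophagosomes, had 22880 normalized counts in mimic 2 and 23405 in control 2, against 4359 in mimic 1 and 4439 in control 1. Numbers 1 and 2 lie far apart, and mimic and control lie together within each. The ratio of means was 5.26, and the log2 difference was 2.40 ± 0.07 (SE, n = 2 each, limma adjusted p = 7.29e-08), the largest of the 38 genes. Its near-identical copy MAP1LC3B2 had 5.20 to 11.2 normalized counts.

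GABARAPL1 (chr12:10212458-10223130, plus strand) had 2588 normalized counts in mimic 2 and 2290 in control 2, against 666 in mimic 1 and 627 in control 1. It was 3.77-fold higher in number 2, with a log2 difference of 1.91 ± 0.10 (limma adjusted p = 9.58e-07). GABARAP had 8882 and 9378 normalized counts in mimic 2 and control 2, against 5580 and 6281 in mimic 1 and control 1. Its ratio of 1.54 was smaller, although per kb of transcript it is the most abundant of the family. GABARAPL2 had a ratio of 1.20 (limma adjusted p = 0.0209), and it was not called without mimic 2 or without control 2, with log2 differences of 0.26 within the mimic and 0.27 within the control libraries.

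Of the receptors, 3 of 4 were called, all higher, against 61.1% called of all genes with a mean of at least 50. SQSTM1 (chr5:179806398-179838078, plus strand), which binds ubiquitin and LC3 and is itself degraded by autophagy, had 43867 normalized counts in mimic 2 and 45125 in control 2, against 18290 in mimic 1 and 18130 in control 1. Its ratio was 2.44 and its log2 difference 1.29 ± 0.08 (limma adjusted p = 2.22e-06). The annotated spans of MRNIP and MGAT4B overlap that of SQSTM1, and whether counting used strand is not given in the sources used here.

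OPTN, a receptor for mitochondria and bacteria, had 7128 and 7291 normalized counts in mimic 2 and control 2, against 4671 and 4203 in mimic 1 and control 1, a ratio of 1.62 (limma adjusted p = 1.14e-04). TAX1BP1, a receptor for protein aggregates, was at 6679 and 6801 against 5387 and 4780, a ratio of 1.33 whose call was lost without mimic 2 or without control 2. NBR1 did not pass, with a ratio of 1.08 (limma adjusted p = 0.223). For each of the 4 receptors both libraries numbered 2 lay above both libraries numbered 1, as for 25 of the 38 genes (65.8%) and for 38.5% of all genes.

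Of the genes of the ULK complex, 3 of 4 were called higher, beside the same 61.1% called of all genes at that mean. RB1CC1, also called FIP200, had 5673 and 5518 normalized counts in mimic 2 and control 2, against 4102 and 3423 in mimic 1 and control 1, a log2 difference of 0.58 ± 0.10. ATG13 stood at a log2 difference of 0.43 ± 0.09 and ULK1 at 0.59 ± 0.14. The call of ATG13 was lost without mimic 2, and that of ULK1 without mimic 2 or without control 2. ULK2, the other kinase, went the opposite way without passing, with 112 and 127 normalized counts in number 2 against 168 and 138 in number 1.

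Of the nucleation complex, BECN1, its regulatory subunit, was called with a log2 difference of 0.28 ± 0.08 (limma adjusted p = 0.0183), and its call was lost without mimic 2 or without control 2. The kinase PIK3C3 was at 0.04 ± 0.09 and the targeting subunit ATG14 at 0.18 ± 0.10, and neither passed. ATG14 has a CACGTG core in the promoter shown above.

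Of the 9 genes of membrane expansion, 4 were called higher and 1 lower, against 61.1% called of all genes with a mean of at least 50. WIPI1 (chr17:68420948-68457513, minus strand), which binds phosphatidylinositol 3-phosphate on the growing membrane, had 6441 normalized counts in mimic 2 and 5905 in control 2, against 2294 in mimic 1 and 2365 in control 1. The groups are well separated, with a ratio of 2.65 and a log2 difference of 1.40 ± 0.08 (limma adjusted p = 1.82e-06). Its relative WIPI2 was called in the opposite direction, with 1778 and 1808 normalized counts in mimic 2 and control 2, against 2245 and 2530 in mimic 1 and control 1. That was a log2 difference of −0.41 ± 0.09 (limma adjusted p = 0.00436).

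The other calls in this group were smaller. ATG12 and ATG5, which are joined in the conjugate that helps to lipidate ATG8 proteins, had log2 differences of 0.38 ± 0.08 and 0.33 ± 0.08. ATG3, the enzyme that transfers the ATG8 protein to lipid, had 0.32 ± 0.08. The calls of ATG12, ATG5, ATG3 and WIPI2 were lost without mimic 2, and those of ATG5, ATG3 and WIPI2 also without control 2. ATG7, the activating enzyme, ATG4B, the processing protease, and ATG16L1, the partner of the conjugate, had log2 differences of 0.20, 0.15 and 0.02 and did not pass, nor did ATG9A at −0.23.

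Of the transcription factors, MITF was called lower in number 2. MITF (chr3:69739435-69968337, plus strand) had 305 normalized counts in mimic 2 and 296 in control 2, against 597 in mimic 1 and 551 in control 1. Its ratio was 0.523 and its log2 difference −0.93 ± 0.12 (limma adjusted p = 2.15e-04), the lowest of the 38 genes. TFE3, the most abundant of the 3, had 4009 and 3957 normalized counts in number 2 against 3700 and 4225 in number 1, which overlap, and did not pass. TFEB was too low and too scattered for its direction to be read, with a log2 difference of 0.16 ± 0.32.

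Of the lysosomal membrane proteins, 2 of 4 were called, both higher, against 61.1% called of all genes with a mean of at least 50. NPC1 (chr18:23506184-23586898, minus strand), which moves cholesterol out of the lysosome, had 23059 normalized counts in mimic 2 and 24287 in control 2, against 14637 in mimic 1 and 15286 in control 1. Its ratio was 1.58 and its log2 difference 0.66 ± 0.08 (limma adjusted p = 1.19e-04). LAMP1 had 16832 and 18389 normalized counts in number 2 against 13430 and 14776 in number 1, a ratio of 1.25 whose call was lost without mimic 2 or without control 2. LAMP2, its relative, was lower without passing, at a log2 difference of −0.10 ± 0.08. MCOLN1 was at 0.27 ± 0.16 and did not pass, with 0.52 within the mimic and 0.01 within the control libraries.

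Of the 7 lysosomal lumen genes tested, 4 were called higher and 1 lower, against 61.1% called of all genes with a mean of at least 50. CTSD (chr11:1752752-1764573, minus strand) led with a ratio of 1.90 and a log2 difference of 0.94 ± 0.12 (limma adjusted p = 2.19e-04), from 58619 and 57834 normalized counts in mimic 2 and control 2, against 26554 and 34725 in mimic 1 and control 1. Its difference was 1.14 within the mimic and 0.74 within the control libraries. HEXA, a subunit of beta-hexosaminidase, had 4592 and 4347 normalized counts in number 2 against 2913 and 3021 in number 1, a ratio of 1.51. CTSA and CTSB had ratios of 1.42 and 1.20, and their calls were lost without mimic 2 or without control 2.

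GLA went down in number 2, with 746 normalized counts in mimic 2 and 796 in control 2, against 1130 in mimic 1 and 1233 in control 1. Its log2 difference was −0.61 ± 0.10 (limma adjusted p = 7.95e-04). CTSL, among the most abundant of the 39 genes, had 20096 and 19871 normalized counts in number 2 against 20039 and 19204 in number 1, a ratio of 1.02, and did not pass. NPC2 was at a log2 difference of −0.20 ± 0.08 and did not pass (limma adjusted p = 0.0702). The lumen genes thus did not move together.

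**Figure D4:**
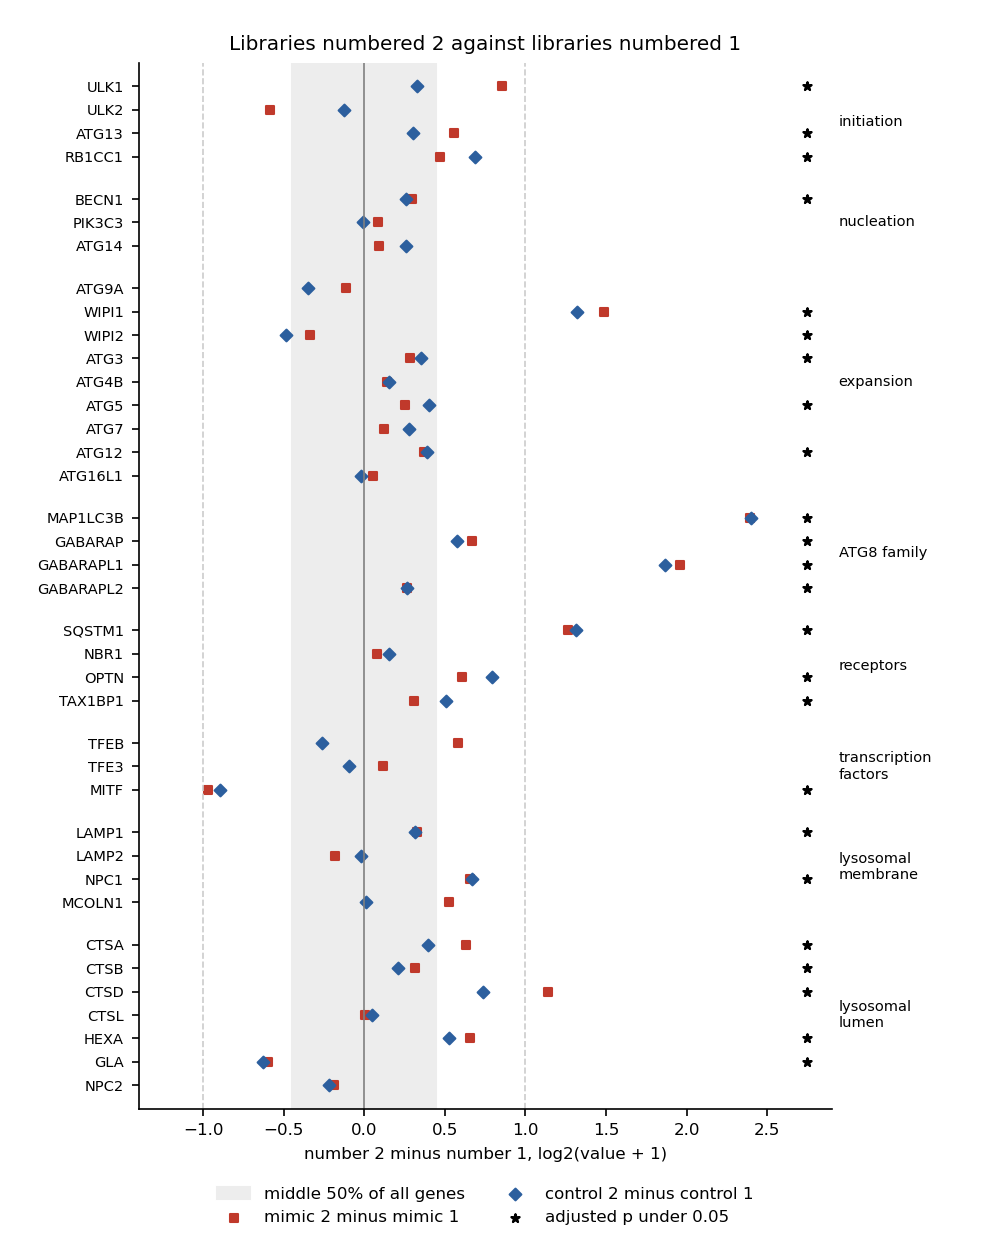
Difference of number 2 minus number 1 in log2(value + 1) for the 38 genes tested, by role, with red squares for the mimic and blue diamonds for the control libraries, a grey band for the middle 50% of all genes and stars for genes called by limma. Squares and diamonds lie close together for MAP1LC3B at 2.39 and 2.40 and for GABARAPL1 at 1.96 and 1.87, while MITF and GLA lie to the left of the band.

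Set side by side, both classes were higher in number 2. The median log2 difference was 0.32 for the autophagosome genes and receptors, with 15 called higher and 1 lower of 24. It was 0.27 for the lysosomal genes, with 6 called higher and 1 lower of 11, and 0.01 for all genes. The shares called were 66.7% and 63.6%, against 50.2% of all genes and 61.1% of those with a mean of at least 50. Counts called by role above stand beside the same shares. The gap between the class medians was 0.06, and no error was estimated for it. Its sign depended on the treatment, at −0.04 within the mimic and 0.11 within the control libraries. All 4 genes past 2-fold were autophagosome genes or receptors, and the highest lysosomal gene was CTSD at 0.94. That fold was also reached upwards by 9.39% of all genes and by 6 of the 34 other lysosomal enzymes tested. GC content made little difference here, with class medians of 0.33 and 0.25 after the correction.

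Cell type markers were called at about the rate of all genes, 10 of 21 tested (47.6%) against 50.2%. Of 6 glioma markers tested, 0 were called higher in number 2 and 3 lower (VIM, NES and CD44). GFAP, SOX2 and EGFR did not pass. The list summed to 146126 and 154612 normalized counts in number 2 against 297583 and 326084 in number 1. Most of that was VIM alone, with 121239 and 126391 against 249907 and 276546. Of 7 immune markers 2 could be tested: CSF1R was called lower, CD68 did not pass, and the list summed to 7301 and 8429 against 8279 and 10676. PTPRC, CD14 and ITGAM were at or near 0 in each library. Of 4 neuronal markers tested, SYT1 was called higher and SNAP25 and TUBB3 lower, with list sums of 3079 and 3522 against 7339 and 8723. Most of the immune sum was CD68, and most of the neuronal sum was TUBB3. The epithelial list had 0 called higher and 1 lower of 4, the endothelial list 0 and 2 of 3, and the oligodendrocyte list 0 and 0 of 2. The part of these shifts in the differences of autophagy and lysosome genes was not tested.

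Among 131 other genes of the pathway, 128 were tested. In mimic minus control 0 were called, 44 lay above 0 and 84 below, and the median log2 difference was −0.04. In number 2 minus number 1, 53 were called higher and 26 lower (61.7% in all, against 50.2% of all genes), with a median of 0.16. The median was 0.31 for the V-ATPase, the proton pump of the lysosome, with 8 called higher and 4 lower of 16. For mTORC1 and its regulators at the lysosome it was 0.18, with 9 higher and 4 lower of 24.

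The other lysosomal enzymes had a median of 0.16, with 14 called higher and 8 lower of 34, and the other autophagy genes 0.09, with 13 higher and 6 lower of 35. For the other lysosomal membrane proteins the median was 0.08, with 6 higher and 1 lower of 13. The sorting genes were split, with 3 higher and 3 lower of 6 and a median of −0.14. Each list thus held genes called in both directions.

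Among the other genes of the pathway called with a mean of at least 50 normalized counts, the 2 highest restrain mTORC1. DDIT4, also called REDD1, had 22082 normalized counts in mimic 2 and 20904 in control 2, against 701 in mimic 1 and 971 in control 1, a log2 difference of 4.70 ± 0.13. SESN2, a leucine sensor, had 6390 and 6078 in mimic 2 and control 2, against 601 and 675 in mimic 1 and control 1, a log2 difference of 3.29 ± 0.09. Both stand far above the range of the 38 genes. They were followed by the lysosomal peptidase TPP1, at a log2 difference of 1.60 ± 0.10, and the lipid scramblase TMEM41B, at 1.52 ± 0.10.

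Outside these limits CTSO was at a log2 difference of 2.29 ± 1.15 and MAP1LC3C at −1.57 ± 0.68, and neither passed. At the low end of the called genes were the protease CTSV, at a log2 difference of −1.56 ± 0.33, and VPS16, a subunit of the tethering complex that fuses vesicles with lysosomes, at −0.95 ± 0.13. The mitophagy receptor BNIP3 was at −0.87 ± 0.09 and GNPTAB, which makes the mannose 6-phosphate tag that sends enzymes to the lysosome, at −0.85 ± 0.08. Each of these 8 genes passed limma, with adjusted p-values from 4.85e-08 for SESN2 to 0.00390 for CTSV. In mimic minus control no gene passed, and the largest log2 differences without overlap were −0.35 ± 0.36 for CASTOR3 and −0.29 ± 0.24 for ATP6V0C, a V-ATPase subunit, at the low end. At the high end they were 0.29 ± 0.28 for ATG10, the enzyme that conjugates ATG12, and 0.09 ± 0.25 for RRAGB, a GTPase that brings mTORC1 to the lysosome.

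**Figure D5:**
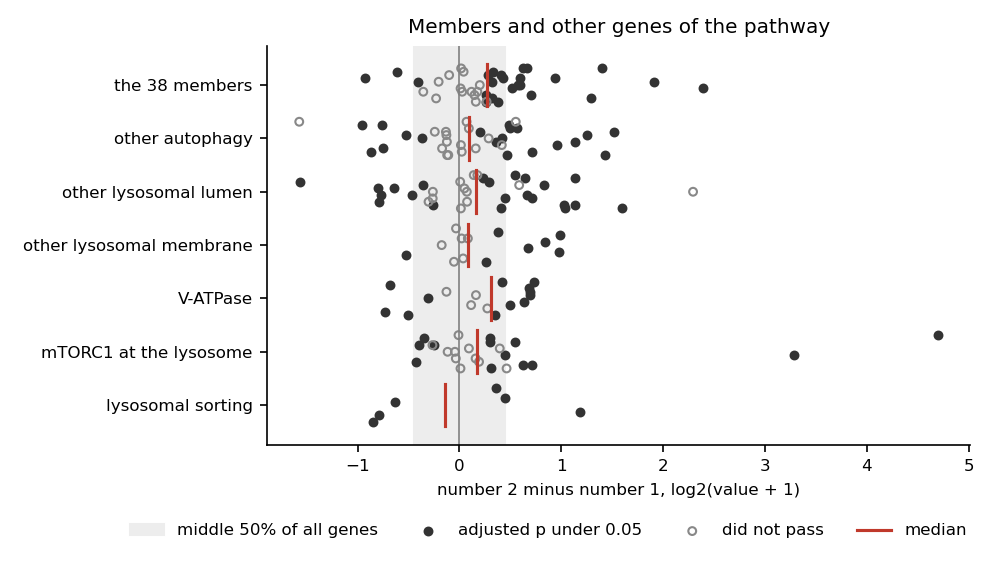
Difference of number 2 minus number 1 in log2(value + 1) for the 38 members and for 6 lists of other genes of the pathway, with filled points for genes called by limma, open points for others, red bars for list medians and a grey band for the middle 50% of all genes. DDIT4 at 4.70 and SESN2 at 3.29 stand to the right of every other point shown, and each list holds called genes on both sides of 0.

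The genes had 365 transcripts in the table, of which 268 passed the filter. Tested singly, 18 were called higher and 2 lower in number 2 (7.46%, against 8.32% of 58500 transcripts), and 0 in mimic minus control (0% of all transcripts). The called transcripts belonged to 11 genes. Estimated counts of single transcripts rest on how reads are divided among similar transcripts, and 28 of the 268 were at 0 in at least 1 library.

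MAP1LC3B was carried by a single transcript, MAP1LC3B-201, with 99.0% of its counts, and GABARAPL1-201 held 87.5%. For SQSTM1 the 2 main transcripts were both called higher: SQSTM1-202 had 23718 and 24860 normalized counts in number 2 against 8538 and 8981 in number 1, and SQSTM1-201 had 17739 and 18167 against 8680 and 7970. In NPC1 transcripts went opposite ways. The main coding transcript NPC1-201 was called higher at a log2 difference of 0.72 ± 0.05, while NPC1-207, which retains an intron, had 272 and 286 normalized counts in number 2 against 531 and 567 in number 1 and was called lower at −0.97 ± 0.14.

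MITF was also split. Its main transcript MITF-204 had 277 and 267 normalized counts in number 2 against 176 and 204 in number 1, a direction opposite to that of the gene, and did not pass (limma adjusted p = 0.164). MITF-203 was at 0 in both libraries numbered 2, against 49.4 in mimic 1 and 127 in control 1, and was called lower. OPTN-202 had 302 and 484 normalized counts in number 2 against 53.9 and 57.1 in number 1, a log2 difference of 2.76 ± 0.30, while the larger OPTN-205 and OPTN-201 did not pass. LAMP2 was mainly LAMP2-202, with 74.2% of its counts, which had 6378 and 7196 normalized counts in number 2 against 7261 and 6929 in number 1.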

How the data were processed

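Polyadenylated RNA was measured in 4 libraries, 2 with the mimic and 2 with the control. Tools named in the submitters' processing notes are kallisto and DESeq2, with the build hg38 and no versions. The authors deposited a signal per transcript, called normalized counts here, which per the column values are estimated reads divided by a size factor for each library. Low values were whole multiples of 1 step for 95.6% to 99.7% of them (tolerance 0.1), and these steps gave the recovered reads on which edgeR and DESeq2 were run. The lowest total of recovered reads in a row was 10. Of 100809 transcripts, 90643 (89.9%) matched GENCODE v29 by identifier without version, 79288 with the same version. Unmatched ones held 3.25% to 3.56% of the values and were left out. Values were summed per gene, and 20 of the 39 genes overlap another measured gene.

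Genes whose mean over the libraries was 10 or more entered limma (trend, log2(value + 1)), and calls are two-sided at a Benjamini-Hochberg adjusted p of 0.05. Fold changes are on the log2(value + 1) scale, which understates those of low genes. The step was also run on simulated data, and the outcome of that run is not given here. Depth was 28860788 to 33848402 reads per library. The members, lists and tests were chosen with earlier results of these data known. All members are named, and of the other pathway genes the 4 with the largest called difference in each direction with a mean of at least 50, or, where none was called, the 2 largest whose groups do not overlap. Transcripts named were chosen after their values were seen. Alternatives were other pseudocounts, filters, scalings and tools, coding transcripts, replicate number as a block, each library left out and, added after seeing the data, a lowess correction for GC content (span 0.3). R 4.3.3, limma 3.58.1, edgeR 4.0.16, DESeq2 1.42.0, Python 3.11.15, numpy 2.4.6, pandas 2.3.3 and matplotlib 3.10.9 were used.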

Additional observations from a re-analysis of the deposited data

How the results depend on the processing

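With the replicate number as a block, the fit of mimic against control called 117 genes, 55 higher and 62 lower, and with the block and the GC correction together it called 2; in both fits 0 of the 38 genes were called. The labels do not say that equal numbers are pairs: same-numbered libraries deviated together (r = 0.745), which is a hint from the data and not from the design. In number 2 against number 1, leaving out each library in turn gave 5163 to 7942 genes called, 12 to 26 members called and a gap between the class medians of −0.13 to 0.13. That comparison called 24 members under other pseudocounts, filters, TMM scaling, coding transcripts, edgeR and DESeq2, 28 with the GC correction, 26 with treatment as a term and 30 with both, while the last 3 fits called 9184, 8891 and 9494 genes against 8301 in the fit reported. Differences of mimic against control are uncalled, and leaving out a library turned the sign of 13 to 15 of the 38. A fit that leaves a group with 1 library assumes that it varies like the other group. In number 2 against number 1, leaving out a library numbered 2 takes a gene's spread from mimic 1 and control 1. A call lost there need not mean a smaller difference: that of GABARAPL2 stayed at 0.26 to 0.27 whichever library was left out. Depth limits TFEB and CTSZ, the lowest of the 39 genes.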

Other observations

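Of 147 transcripts of these genes with a mean of at least 50 normalized counts, 3 were at least 2-fold higher in the mimic with groups that do not overlap, and 0 were lower by as much, against 1.56% and 1.60% of all transcripts at that mean. These were chosen after their values were seen, and none passed limma (adjusted p = 1.00 for each). CTSD-214, a transcript of the protease CTSD without a coding frame, had 944 and 268 normalized counts in the mimic libraries and 10.4 and 12.3 in the control libraries. CTSD-214 held 0.695% of the counts of CTSD by the mean over the libraries, with 3.56% in mimic 1 and 0.457% in mimic 2. In control 1 and control 2 it held 0.0299% and 0.0213%. For the gene as a whole the groups overlapped. ATG14-202, which retains an intron of ATG14, had 201 and 121 normalized counts in the mimic libraries and 36.4 and 51.5 in the control libraries, while the coding ATG14-201 overlapped, with 743 and 886 against 789 and 936. ATG5-201 had 741 and 207 in the mimic libraries and 114 and 58.3 in the control libraries, while ATG5-204 had 129 and 1384 against 512 and 1440. Whether the division of reads among transcripts of a gene bears on these values was not tested.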
